A study of Mus musculus with 4 samples.

Results

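The alveolar transitional state genes are 7 genes that mouse alveolar type 2 (AT2) cells are known to turn on as they leave their own identity: the keratins Krt8 and Krt18, Clu, Sprr1a, Ndnf, Cldn4 and Areg. They are 7 of the 30028 genes listed in the deposited matrices of single-cell RNA sequencing of whole mouse lung, and they were taken by gene symbol. Areg was found by its Ensembl identifier, because its symbol is written Mcub_2 in the matrices. The members were selected on their UMI levels in AT2-like and other cells of these same 4 libraries, so all their levels are given as a description, and no test was made on any of them.

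The lungs came from mice aged 11 weeks in 4 groups: HySu FUNDC1 knockout (HSK), HySu wild type (HSW), normoxia FUNDC1 knockout (NK) and normoxia wild type (NW). HySu is a model of pulmonary hypertension that joins hypoxia with SU5416, a blocker of VEGF receptors, given in 3 weekly doses. The control mice received the vehicle and were kept in normoxia, and all 4 groups were digested, depleted of red cells and captured in microwells in the same way. Each group was 1 library made from the pooled cells of 5 mice, so there was no replicate, and differences between mice, between libraries and between groups cannot be told apart. FUNDC1 is a receptor for mitophagy, the removal of mitochondria by autophagy. The study's title places its deficiency in the endothelium, and the labels name no driver or cell type for the knockout. In AT2-like cells Fundc1 had 0.107 CPM (counts per 1000000 UMIs) in HSK and 0.772 CPM in NK, against 30.6 CPM in HSW and 29.2 CPM in NW, so the knockout showed in the cells described here.

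AT2 cells make surfactant and act as stem cells of the alveolus. When they replace flat alveolar type 1 (AT1) cells, which carry gas exchange, they pass through a state in which simple epithelial keratins and stress genes are turned on, the surfactant genes are lowered and the AT1 programme is not yet complete. In mice this state is known from injury by bleomycin and from regrowth after removal of a lung, and it has been described as transient in repair and as persistent in fibrosis.

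Krt8 and Krt18 encode keratins that pair into one filament, and their genes are neighbours on chromosome 15, at chr15:101996698-102004482 on the minus strand and chr15:102028180-102032027 on the plus strand of GRCm38 in the GENCODE annotation, with 23697 bases between them. The sequences that lie directly before the earliest annotated start of each are shown because the levels of both genes moved together across cell classes. The sequences are RefSeq's (GRCm38.p6), read 5′ to 3′ on the strand of the gene.

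Krt8, chr15:102004483-102004592: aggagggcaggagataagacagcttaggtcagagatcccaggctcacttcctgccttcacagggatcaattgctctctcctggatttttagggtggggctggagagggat

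Krt18, chr15:102027966-102028179: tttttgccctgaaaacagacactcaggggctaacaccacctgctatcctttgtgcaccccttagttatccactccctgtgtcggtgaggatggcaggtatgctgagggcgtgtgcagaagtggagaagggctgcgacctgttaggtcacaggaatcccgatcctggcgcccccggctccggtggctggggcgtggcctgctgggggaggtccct

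Neither window held the AP-1 motif TGACTCA, the cAMP response element TGACGTCA or the TATA box TATAAA on either strand, so both are printed without capitals. AP-1 was in 1.79% of all 32851 RefSeq windows of 110 bases and in 3.89% of those of 214 bases.

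Sprr1a (chr3:92483952-92485895, minus strand) encodes a small proline-rich protein of the cornified envelope that is induced in stressed epithelia. Areg (chr5:91139599-91148432, plus strand) encodes amphiregulin, a ligand of the EGF receptor. Their windows are shown because these were the only members called higher in the HySu knockout library than in at least 1 other library, and capitals mark the motifs.

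Sprr1a, chr3:92485896-92486131: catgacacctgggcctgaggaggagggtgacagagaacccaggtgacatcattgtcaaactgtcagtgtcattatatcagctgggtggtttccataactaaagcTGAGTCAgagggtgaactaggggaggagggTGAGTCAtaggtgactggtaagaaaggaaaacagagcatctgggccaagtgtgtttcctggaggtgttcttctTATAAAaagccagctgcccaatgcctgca

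Areg, chr5:91139349-91139598: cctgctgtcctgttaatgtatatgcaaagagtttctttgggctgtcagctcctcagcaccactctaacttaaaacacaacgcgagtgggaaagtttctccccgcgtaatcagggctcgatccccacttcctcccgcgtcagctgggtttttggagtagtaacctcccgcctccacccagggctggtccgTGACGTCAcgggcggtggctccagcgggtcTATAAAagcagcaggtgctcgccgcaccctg

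The Sprr1a window held 2 AP-1 motifs, read as TGAGTCA on the gene's strand, that began 132 and 102 bases before its end, and a TATAAA that began 29 bases before its end. The Areg window held the palindrome TGACGTCA at 61 bases and TATAAA at 31 bases before its end, and no AP-1 motif. The motif was not particular to Sprr1a: the Cldn4 window (chr5:134946935-134947184) also held 2 AP-1 motifs, at 240 and 158 bases before its end. AP-1 was in 4.28% of all windows of 236 bases, the cAMP response element in 1.55% of those of 250 bases and TATAAA in 11.9% and 12.4% of those of 236 and 250 bases. A match of letters says nothing of whether a factor binds there.

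Of the other members, Clu (chr14:65968483-65981547, plus strand) encodes clusterin, a secreted chaperone that blocks complement. Ndnf (chr6:65671590-65712326, plus strand) encodes a secreted glycoprotein that was first known from neurons. Cldn4 (chr5:134945119-134946934, minus strand) encodes claudin 4, a protein of tight junctions that tightens epithelia.

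The libraries held 4128 (HSK), 5041 (HSW), 9164 (NK) and 7649 (NW) cells with 41308071, 45589625, 63501686 and 62747087 UMIs, in the same order. The smallest number of UMIs in a cell differed between the deposited libraries, at 4726, 4230, 3182 and 3775. Cells with marker genes of more than 1 lineage were removed, at 12.7% in HSK, 20.04% in HSW, 31.7% in NK and 25.7% in NW, and 252 barcodes occurred in more than 1 library. Clustering without the members left 1219, 948, 1280 and 1122 AT2-like cells, with median depths of 7051, 7001, 4556.5 and 5582 UMIs. Sftpc, the surfactant gene that defines AT2 cells, had 239603 to 289196 CPM there, and Lamp3 was found in at least 99.8% of the cells. Free RNA was present, since Sftpc was also found in 100% of T and NK-like cells at 1810 to 4671 CPM and Lamp3 in 6.86% to 13.9% of them. The AT1-like class held only 16, 29, 22 and 41 cells, and Sftpc stood at 119896 to 201215 CPM in it, well above the T and NK-like cells; HSK, with under 20 such cells, was given no member level there.

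Levels below are CPM: a gene's UMIs, summed in 1 class of 1 library, scaled by the UMIs of all genes in those cells. Brackets give exact 95% Poisson intervals for levels and exact conditional binomial intervals for ratios, which cover counting error only, not differences between mice or between cells. A member was called higher or lower where the ratio of a pair of libraries was beyond 2-fold, its interval left out 1 and the pair held at least 20 UMIs.

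The members were mostly genes of the epithelium, and each had its own place in it. Krt8 was highest in AT1-like and ciliated-like cells, with 423, 818 and 774 CPM in AT1-like cells of HSW, NK and NW and 296, 350, 780 and 607 CPM in ciliated-like cells of HSK, HSW, NK and NW. AT2-like cells stood below both in each library that had a level, at 120 to 283 CPM. Krt18 was also highest in AT1-like cells, with 344, 463 and 427 CPM in AT1-like cells of HSW, NK and NW. In the 8 leukocyte classes Krt8 reached at most 15.4 CPM and Krt18 at most 13.9 CPM, and in T and NK-like cells Krt8 had 4.73 to 6.49 CPM.

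Ndnf was a gene of AT1-like cells, with 741, 984 and 964 CPM in HSW, NK and NW, against 26.3 to 73.4 CPM in AT2-like cells and 18.9 to 33.5 CPM in fibroblast-like cells. Clu was not epithelial alone: vascular endothelial-like cells held 242, 172, 288 and 350 CPM in HSK, HSW, NK and NW. An unnamed cluster led by the smooth muscle genes Acta2 and Tagln held 262 to 511 CPM of Clu. Cldn4 was a gene of the airway in these libraries, with 2.49, 4.22, 21.997 and 12.8 CPM in club-like cells and 2.79, 2.82, 14.7 and 11.2 CPM in ciliated-like cells of HSK, HSW, NK and NW. Among the named classes Areg was highest in AT1-like cells of NK and NW, at 152 and 133 CPM, but the few cells that a finer clustering took out of the class carried most of this, and 58.5 CPM in NK (5 UMIs in 14 cells) and 5.22 CPM in NW (1 UMI in 29 cells) were left without them. In leukocyte classes Areg reached at most 50.4 CPM. Sprr1a was at most 3.08 CPM in leukocyte classes, and its 401 CPM in AT1-like cells of HSW came from 92 UMIs in 1 cell.

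**Figure D1:**
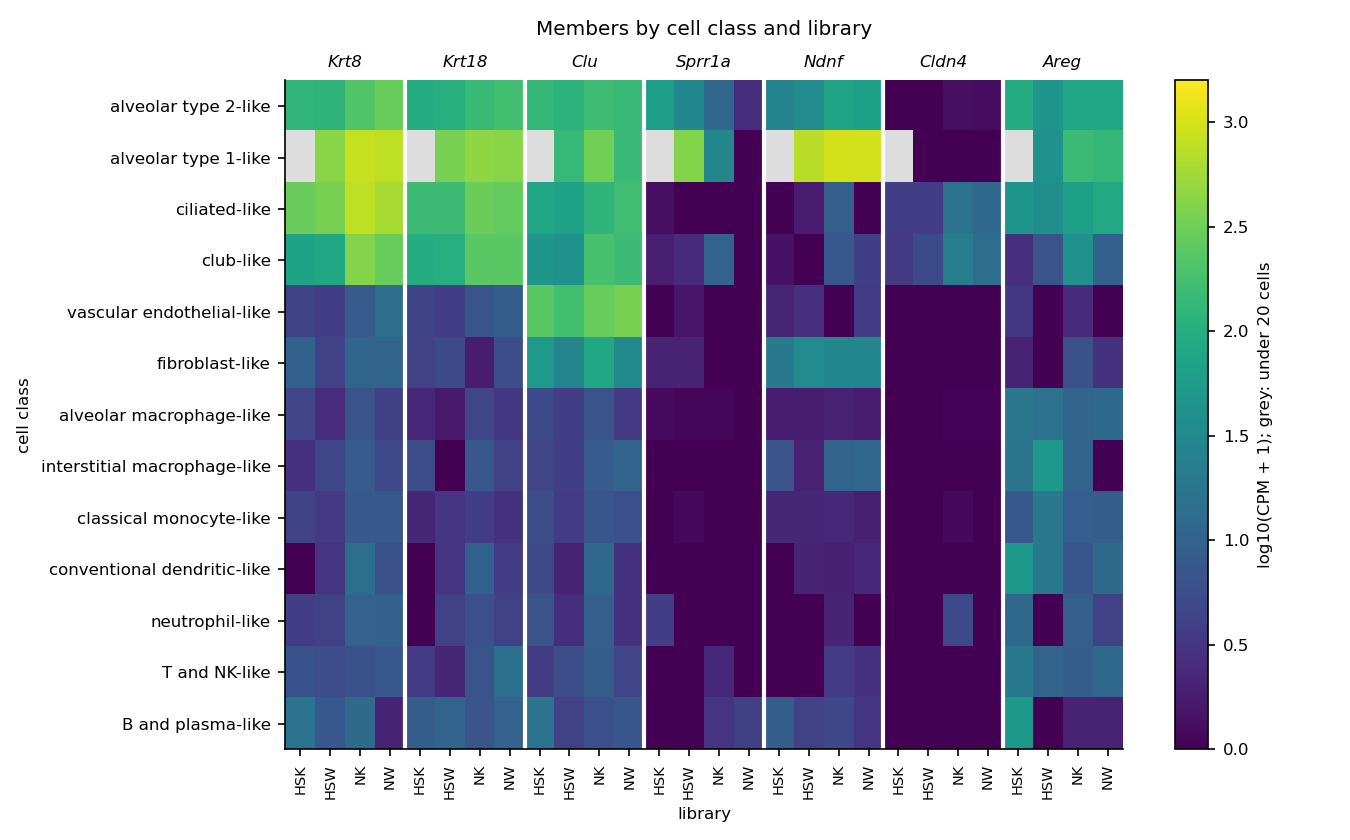
Level of each member (colour, log10 of CPM + 1) in cell classes (down) and the 4 libraries (across); classes under 20 cells are grey. The keratins are highest in AT1-like and ciliated-like cells, Ndnf in AT1-like cells, and Clu also reaches 350 CPM in vascular endothelial-like cells.

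In AT2-like cells the keratins were lowest in the HySu libraries. Krt8 had 128 [120, 135] CPM in HSK, 120 [112, 128] CPM in HSW, 213 [202, 225] CPM in NK and 283 [271, 296] CPM in NW. The HySu libraries overlapped each other within counting error and lay below both normoxia libraries. Krt8 was called lower in HSW than in NW, at 0.422 [0.389, 0.458]-fold, where 11.8% of the 11736 measured genes were called lower and 0.92% higher. The median gene was itself shifted by -0.46 on the log2 scale in that pair, and relative to it Krt8 stood at -0.78. With TMM or median-of-ratios scaling, which remove most of that shift, the ratio was 0.573 or 0.578 and the call was lost.

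In the knockout pair Krt8 stood at 0.598 [0.553, 0.647]-fold in HSK against NK and was not called. The median gene there was shifted by -0.59 on the log2 scale, and Krt8 stood at -0.15 relative to it. In NK against NW, where the median gene shifted by 0.07, Krt8 stood at 0.753 [0.703, 0.808]-fold, and in HSK against HSW, where it shifted by -0.02, at 1.07 [0.977, 1.168]-fold. Krt8 was detected in 48.0%, 47.9% and 48.1% of the AT2-like cells of HSK, HSW and NK and in 61.3% of those of NW, against 2.29% to 4.26% of T and NK-like cells. The cells of NK were the shallowest, so these shares are not on 1 scale of depth. After each cell was thinned to 3784 UMIs they were 30.4%, 31.1%, 43.2% and 49.96%, which has the order of the CPM except that HSK and HSW change places.

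Krt18 followed with smaller ratios. It had 94.2 [88.0, 101] CPM in HSK, 104 [96.8, 112] CPM in HSW, 145 [136, 154] CPM in NK and 168 [159, 178] CPM in NW. No pair was called, with ratios of 0.650 in HSK against NK and 0.619 in HSW against NW, or -0.03 and -0.23 on the log2 scale relative to the median gene. The lower CPM of Krt18 in HySu was therefore close to that of the median gene in the knockout pair.

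**Figure D2:**
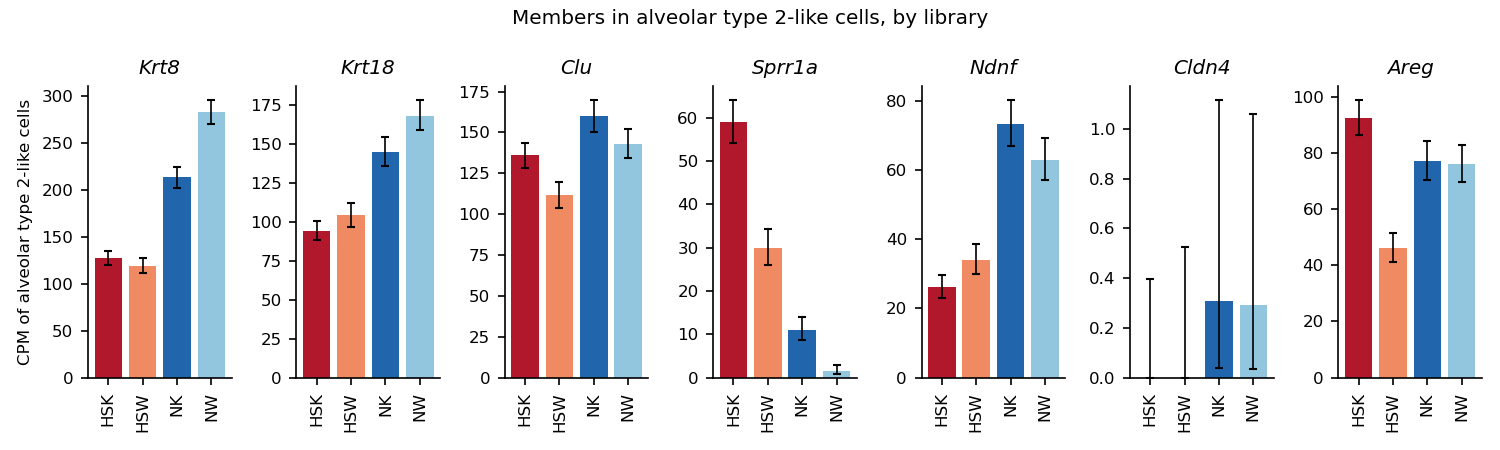
Level of each member in AT2-like cells of HSK, HSW, NK and NW (CPM, drawn as bars with exact 95% Poisson intervals, which cover counting error only). Krt8 and Ndnf are lower in both HySu libraries, Sprr1a is higher in them, and Areg is lowest in HSW at 46.0 CPM.

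Clu was the member that differed least. It had 136 [129, 144] CPM in HSK, 111 [104, 120] CPM in HSW, 160 [150, 170] CPM in NK and 143 [134, 152] CPM in NW. No pair was called. Its ratio was 0.850 in HSK against NK and 0.779 in HSW against NW, but relative to the median gene it stood at 0.36 and 0.10 on the log2 scale, so the direction turned with the scaling.

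Ndnf was lower in the HySu library of the knockout pair. It had 26.3 [23.1, 29.8] CPM in HSK, 34.1 [29.9, 38.7] CPM in HSW, 73.4 [66.9, 80.3] CPM in NK and 63.0 [57.1, 69.2] CPM in NW, so the HySu libraries lay apart from those of normoxia. It was called lower in HSK than in NK, at 0.358 [0.306, 0.419]-fold, where 21.2% of the 12086 measured genes were called lower and 2.2% higher. Relative to the median gene it stood at -0.89 on the log2 scale, and with TMM or median-of-ratios scaling the ratio was 0.532 or 0.535 and the call was lost. In HSW against NW the ratio was 0.542 [0.461, 0.636] and was not called.

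Cldn4 had 0 UMIs in the AT2-like cells of HSK and HSW and 2 UMIs in each of NK and NW. It was under 20 UMIs in every pair and was not measured there, so 6 of the 7 members were measured in AT2-like cells.

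Areg was the only member called higher in the HySu knockout library than in the HySu wild-type library. It had 92.5 [86.4, 98.8] CPM in HSK, 46.0 [41.2, 51.3] CPM in HSW, 77.1 [70.5, 84.1] CPM in NK and 76.0 [69.6, 82.9] CPM in NW. By CPM HSW lay below the others, and NK and NW overlapped. The ratio of HSK to HSW was 2.01 [1.77, 2.29], where 1.64% of the 11742 measured genes were called higher and 0.784% lower. The call lay at the 2-fold threshold: without removal of mixed cells the ratio was 1.97, with Scrublet removal alone 1.96 and within the AT2-like cluster led by Sftpc 1.89. Against the normoxia libraries Areg stood at 1.20 [1.07, 1.34]-fold in HSK against NK and at 0.606 [0.525, 0.697]-fold in HSW against NW. Relative to the median gene these ratios were 0.85 and -0.26 on the log2 scale, so on that scale it was HSK that lay farther from its normoxia library.

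The share of AT2-like cells with an Areg UMI had the same pattern, at 24.4% in HSK, 13.2% in HSW, 15.5% in NK and 15.2% in NW. Thinned to 3784 UMIs it was 17.2%, 8.86%, 13.7% and 12.2%, against 6.38%, 3.18%, 1.08% and 2.31% of T and NK-like cells. Areg was spread over more cells than Sprr1a: the 10 cells with the most UMIs held 15.0% to 26.5% of its UMIs, and 7.5% to 11.9% of those of Krt8.

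**Figure D3:**
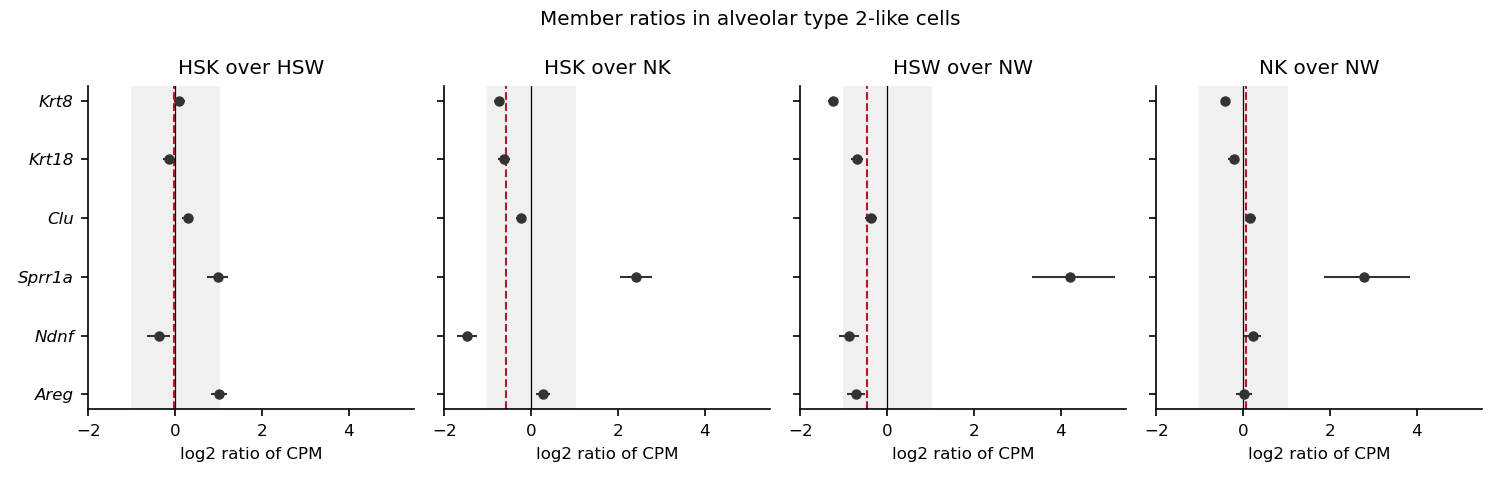
Ratio of each measured member in AT2-like cells (log2 scale) for HSK against HSW, HSK against NK, HSW against NW and NK against NW, with exact 95% conditional binomial intervals for counting error only, and the median of all measured genes as a dashed line; the grey band is 2-fold either way. Sprr1a lies highest in 3 of the 4 pairs, and the median gene lies at -0.59 and -0.46 in the HySu pairs.

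Sprr1a had the largest ratios of the members and rested on the fewest cells. It had 59.0 [54.2, 64.1] CPM in HSK, 30.0 [26.1, 34.3] CPM in HSW, 11.1 [8.70, 14.0] CPM in NK and 1.61 [0.806, 2.89] CPM in NW, from 550, 211, 72 and 11 UMIs. The libraries did not overlap within counting error. It was called higher in HSK than in NK, at 5.30 [4.14, 6.88]-fold, in HSW than in NW, at 18.6 [10.2, 37.8]-fold, and in NK than in NW, at 6.89 [3.63, 14.4]-fold, where 2.02% of the 12004 measured genes were called higher and 1.13% lower. In HSK against HSW it stood at 1.97 [1.68, 2.32]-fold and was not called.

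These intervals do not hold the clumping of Sprr1a in single cells. Only 12, 11, 8 and 5 AT2-like cells had any Sprr1a UMI in HSK, HSW, NK and NW. As shares these were 0.984% [0.510, 1.71] in HSK, 1.16% [0.581, 2.07] in HSW, 0.625% [0.270, 1.23] in NK and 0.446% [0.145, 1.04] in NW, with exact Clopper-Pearson intervals, and all 4 intervals overlapped. The cell with the most Sprr1a held 214 UMIs in HSK, 75 in HSW, 45 in NK and 4 in NW. Without that cell in each library, the level was 36.1 CPM in HSK, 19.3 CPM in HSW, 4.17 CPM in NK and 1.03 CPM in NW, and the ratio was 8.64 in HSK against NK, 18.8 in HSW against NW and 4.06 in NK against NW.

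The level also moved with how cells of more than 1 lineage were removed. When neutrophil genes were left out of that rule, the ratio was 1.15 in HSK against HSW and 2.71 in HSK against NK. Within the AT2-like cluster led by Slc34a2, Acoxl and Lyz1, which was the smaller one in HySu, Sprr1a had 30, 0, 64 and 7 UMIs in HSK, HSW, NK and NW, and in the cluster led by Sftpc, S100g and Sftpa1 it had 520, 211, 8 and 4. The Sftpc-led cluster held 88.7% and 82.8% of the AT2-like cells in HSK and HSW, and 19.1% and 28.8% in NK and NW, so cluster and treatment went together.

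**Figure D4:**
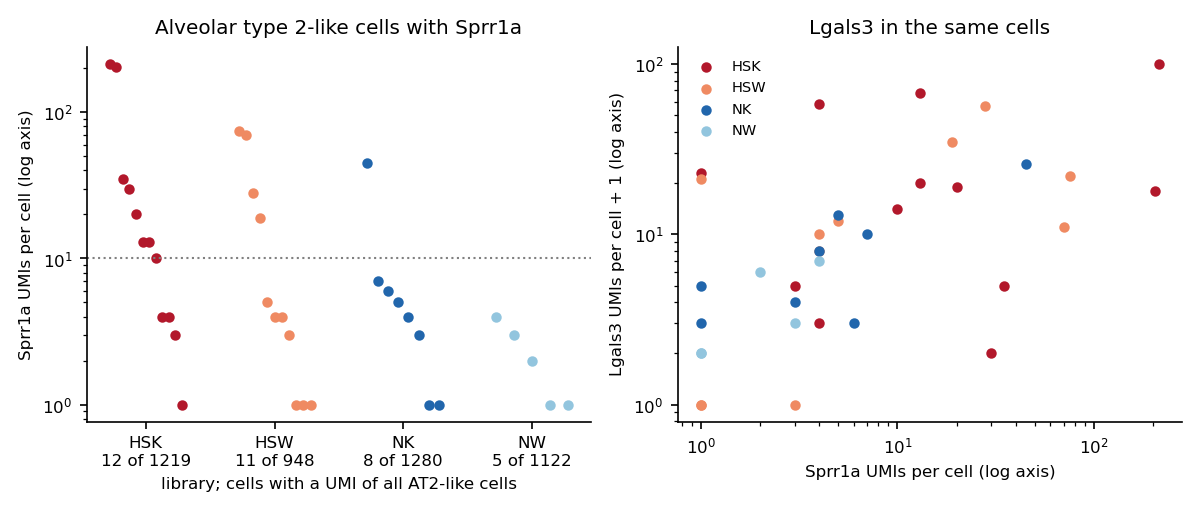
Sprr1a UMIs of each AT2-like cell with at least 1 (log scale), by library (left), and beside the Lgals3 UMIs of the same cell plus 1 (right, log scales). HSK holds 8 cells with at least 10 UMIs, HSW 4, NK 1 and NW none, and 1 cell of HSK holds 214.

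Cells with at least 10 Sprr1a UMIs, a number set after the values were seen, were 8 of the AT2-like cells in HSK (0.656% [0.284, 1.29]), 4 in HSW (0.422% [0.115, 1.08]), 1 in NK (0.0781% [0.00198, 0.435]) and 0 in NW (0% [0, 0.328], or up to 0.267% by a limit of 3 counts). Their Sprr1a counts in HSK were 214, 203, 35, 30, 20, 13, 13 and 10, in HSW 75, 70, 28 and 19, and in NK 45. They held 538 of the 550 UMIs in HSK, 192 of 211 in HSW and 45 of 72 in NK.

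Most of the other transitional genes stood high in these 13 cells when they were set beside the other 4556 AT2-like cells. Krt8 had 818 CPM in the 13 cells, against 178 CPM in the others, and was found in 12 of them. Krt18 had 452 against 124 CPM, Clu 958 against 134 CPM and Ndnf 355 against 45.9 CPM. Areg had 247 against 73.8 CPM, but the 4 cells that held it were all from HSK. The 4 cells of HSW and the 1 of NK had no Areg UMI, against 46.2 and 77.2 CPM in the other AT2-like cells of these libraries, and Cldn4 had no UMI in them.

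The same held for genes outside the 7 members. Lgals3, which encodes galectin 3, had 4132 CPM in the 13 cells, against 133 CPM in the other AT2-like cells, and was found in 13 of 13. Krt19, another simple keratin, had 366 against 31.4 CPM. Sfn, which encodes the cell cycle checkpoint protein 14-3-3 sigma, had 678 against 33.6 CPM, and Nupr1, a stress-induced regulator, 6327 against 401 CPM. Nupr1 was uneven: of its 588 UMIs in the 13 cells, 306 lay in 1 cell of HSW, and it was found in 11 of them. Lgals3 was uneven too: of its 384 UMIs, 99 and 67 lay in single cells of HSK and 56 and 34 in single cells of HSW. Those cells, with 0 or 1 Lamp3 UMI each, held 77, 75, 306 and 37 UMIs of Nupr1 and 6, 8, 5 and 4 of the 34 of Krt19. Of the 63 UMIs of Sfn they held 8, 3, 3 and 2. How far the counts of called genes rested on them was not tested. In a wider list of genes of the transitional state, 20 of 33 measured genes were called higher and 1, Il33, lower, where 6.17% of the 13183 measured genes were called higher and 1.65% lower. The median gene stood at 0.67 on the log2 scale in the 13 cells, beside 1.94 for the median of the wider list. These log2 values add 0.5 UMI to each count, which raises genes with 0 or few UMIs in so few cells. How much of either median came from this was not tested.

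AT2 identity stood low in the sum of these cells, but the cells were not alike. Over the 13 cells the summed AT2 markers ranged from 11047 to 292371 CPM with a median of 232561 CPM. The median of the other AT2-like cells was 344299 CPM. Of 17 measured genes of AT2 identity, 12 were called lower and 0 higher, with a median of -1.15 on the log2 scale. The phospholipid transporter gene Abca3 had 129 CPM in the 13 cells, against 695 CPM in the others, and Hc, which encodes complement C5, 603 against 2136 CPM. Sftpc was at 142808 against 268664 CPM and Lamp3 at 1065 against 2098 CPM, and neither was called. Of 18 genes of AT1 identity 4 were called higher and 0 lower, and of 15 p53 targets 5 were called higher, among them Cdkn1a at 387 against 73.9 CPM. The pattern was present in each HySu library alone: in the 8 cells of HSK 17 of 31 wider genes were called higher and 10 of 17 AT2 identity genes lower, where 7.27% and 0.943% of all genes were, and in the 4 cells of HSW 19 of 30 and 11 of 17, where 6.31% and 0.848% were. With the same 0.5 UMI added, the median gene stood at 0.78 in the cells of HSK and at 1.16 in those of HSW. The 1 cell of NK was different: it had 3580 CPM of Lgals3, against 134 CPM in the other AT2-like cells of NK, but no UMI of Krt19, Sfn or Anxa1, 143 against 350 CPM of Nupr1, 143 against 145 CPM of Krt18 and 2578 against 2597 CPM of Lamp3.

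Markers of other cell types were also summed in these 13 cells. Alveolar macrophage markers had 355 CPM, against 324 CPM in the other AT2-like cells, neutrophil markers 818 against 670 CPM and club markers 4207 against 5291 CPM. Plasmacytoid dendritic markers had 689 against 283 CPM, non-classical monocyte markers 226 against 105 CPM and cycling markers 161 against 71.6 CPM, with single cells as high as 3745, 1730 and 572 CPM. Basal markers were at 0 in all 13. The highest cell had 4405 CPM of neutrophil markers, and the part of any of these markers in the result was not tested. Lamp3 was found in 10 of the 13 cells. The cell of HSK with 214 Sprr1a UMIs held 113 UMIs of Sftpc, 99 of Lgals3 and none of Lamp3. A cell of HSK with 13 Sprr1a and 156 Sftpc UMIs and the cell of HSW with 28 and 423 had no Lamp3 UMI either. These cells therefore lacked a defining AT2 marker. The cell of HSW with 19 Sprr1a UMIs held 35 UMIs of Sftpc and 1 of Lamp3.

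Across thinned AT2-like cells, at least 3 members were found in more cells of the normoxia libraries, where Krt8 was higher. After thinning to 3784 UMIs, at least 3 of the 7 members were found in 10.7% [8.99, 12.5] of AT2-like cells in HSK, 8.86% [7.13, 10.9] in HSW, 16.02% [13.8, 18.5] in NK and 18.4% [16.2, 20.8] in NW. The HySu libraries were below those of normoxia, with intervals that did not overlap, and no T and NK-like cell reached 3 members. Thinning keeps the lower CPM of the median gene in HySu, and no share over all genes was set beside these. How much of the difference followed from each member's own share of cells was not tested. In NK 319 shallower cells and in NW 3 were left out by the thinning. Without thinning the shares were 25.3%, 21.4%, 22.5% and 29.4%, and the order of HSK and NK turned round.

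The members had different orders between libraries, but within each library Krt18, Clu, Ndnf and Areg stood highest in the cells with the most Krt8. Thinned AT2-like cells were split by their Krt8 UMIs into those with 0, 1 to 2 and at least 3. Krt18 stood at 82.6, 92.6 and 271 CPM over these steps in HSK, at 98.7, 112 and 264 in HSW, at 114, 145 and 283 in NK and at 149, 168 and 287 in NW. Ndnf stood at 23.7, 26.9 and 100 CPM in HSK, at 28.7, 58.6 and 172 in HSW, at 52.8, 74.1 and 173 in NK and at 52.9, 62.6 and 116 in NW. Both were highest in the cells with at least 3 Krt8 UMIs in all 4 libraries.

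Sprr1a stood at 10.9, 8.70 and 2121 CPM over the steps in HSK, at 0.405, 60.5 and 661 in HSW, at 1.45, 20.9 and 18.2 in NK and at 0, 0 and 19.3 in NW, so in NK it was not highest in the top step. Clu and Areg had the order of Krt18. In HSK Clu stood at 118, 180 and 414 CPM and Areg at 74.5, 94.2 and 421 CPM, and in NW Clu stood at 110, 150 and 284 CPM and Areg at 41.5, 78.3 and 210 CPM. Krt19, which is no member, had 229, 132, 91.1 and 129 CPM in the cells with at least 3 Krt8 UMIs of HSK, HSW, NK and NW, against 22.1, 18.6, 22.7 and 31.1 CPM in those with 0. The summed AT2 identity genes were lower there, at 311132, 310201, 325041 and 317827 CPM, against 375246, 378239, 352086 and 343300 CPM in cells with 0. Sftpc made up most of these sums in HSK, HSW and NK, at 238372, 238491 and 235183 CPM there, against 291839, 290484 and 255671 CPM. Lamp3 was lower too, at 1671, 1374 and 2266 CPM, against 1771, 1833 and 2612 CPM, but in HSK within counting error. The wider transitional list, which holds no member, had 10864, 8827, 5705 and 6209 CPM there, against 5467, 5002, 4436 and 4512 CPM. The summed AT1 identity genes had 1928, 2326, 2618 and 2436 CPM in the cells with at least 3 Krt8 UMIs of HSK, HSW, NK and NW, against 1670, 1858, 2144 and 2199 CPM in those with 0, and the intervals for counting error were apart in HSW, NK and NW. Within that list Ager had 829, 846, 1039 and 934 CPM, against 751, 871, 927 and 1002 CPM. Cells with at least 3 Krt8 UMIs were few, at 37, 20, 87 and 137, and 19, 12, 45 and 68 of them had exactly 3. Mixtures of AT1 and AT2 cells were not removed, and their part in these steps was not tested.

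**Figure D5:**
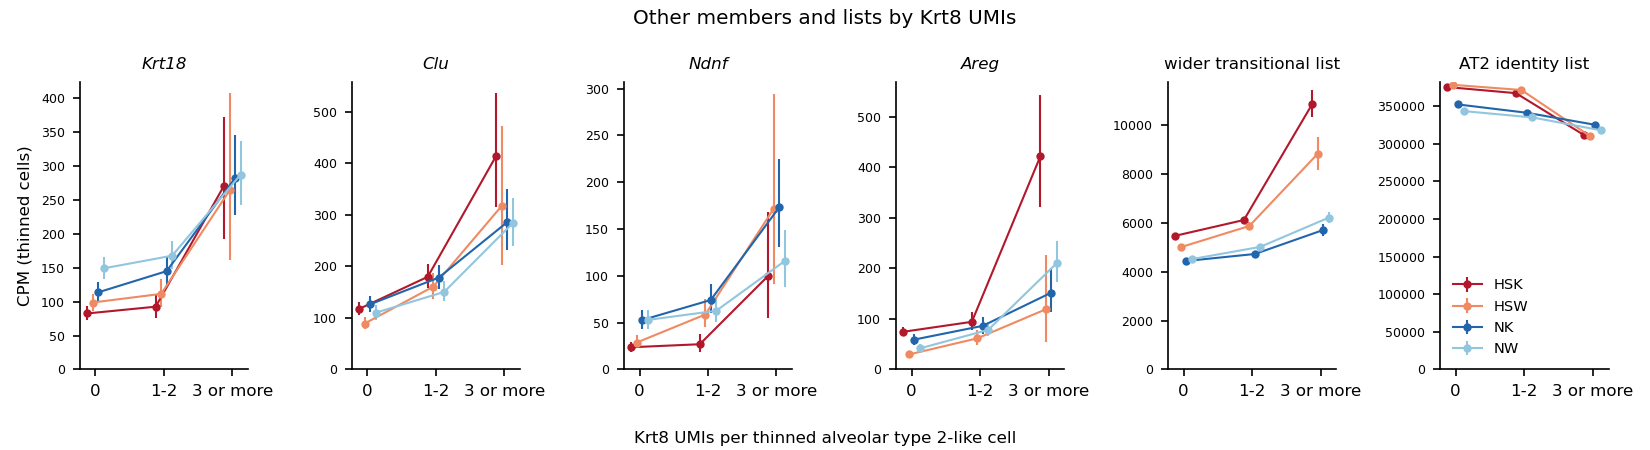
Level of Krt18, Clu, Ndnf and Areg and of the summed wider transitional and AT2 identity lists (CPM, with 95% Poisson intervals) in AT2-like cells thinned to 3784 UMIs, by the cell's Krt8 UMIs (0, 1 to 2, at least 3), for each library. Krt18, Clu, Ndnf, Areg and the wider list are highest, and the AT2 identity list is lowest, in cells with at least 3 Krt8 UMIs in all 4 libraries.

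A finer clustering held 1 cluster of 64, 57, 52 and 89 cells in HSK, HSW, NK and NW that was led by Sprr1a, Ndnf, Ager and Cldn18; it was picked after its genes were seen and is left without a name. It took 57, 48, 44 and 77 cells from the AT2-like class, or 4.68%, 5.06%, 3.44% and 6.86% of it, and 7, 9, 8 and 12 from the AT1-like class. Its level of Krt8 was 173 to 656 CPM, against 116 to 265 CPM in the other AT2-like cells. Its AT1 genes lay between those of both classes: Ager had 1220 to 1663 CPM in the cluster, against 733 to 938 CPM in the other AT2-like cells and 8677 to 11876 CPM in the AT1-like cells left, and Hopx 74.7 to 104 CPM, against 11.4 to 13.7 CPM and 1782 to 2942 CPM. The removal of mixed cells did not cover mixtures of AT1 and AT2 cells, since both are epithelial. Their part in these levels was not tested. The cluster held 46.4%, 35.5%, 20.8% and 0% of the AT2-like Sprr1a UMIs and 6.81%, 8.32%, 9.84% and 12.8% of those of Krt8, so most Krt8 lay in other cells. In HSK 203 of these 255 Sprr1a UMIs and in HSW 70 of 75 lay in 1 cell. Since only 12, 11, 8 and 5 AT2-like cells had any Sprr1a UMI, most cells of the cluster had none. Without the cluster, Sprr1a stood at 3.62-fold in HSK against NK, 11.8-fold in HSW against NW and 5.28-fold in NK against NW.

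Outside AT2-like cells, the HySu libraries had lower levels of the keratins, Clu and Cldn4 in the airway, where the median gene was shifted far more. In club-like cells of HSK against NK, Krt8 was called lower at 0.177-fold (71.8 against 406 CPM), Krt18 at 0.399-fold, Clu at 0.251-fold, Cldn4 at 0.113-fold and Areg at 0.0412-fold, where 67.7% of measured genes were called lower. The median gene there was shifted by -1.41 on the log2 scale. In NK, 1 club-like cell held 119 UMIs of Krt8, 53 of Krt18, 80 of Clu, 7 of Cldn4 and 35 of Areg. The ratios of this pair rested in part on that cell, and that of Areg for the most part. In club-like cells of HSW against NW, Krt8, Krt18 and Clu were called lower at 0.286, 0.413 and 0.279-fold, where 50.3% of measured genes were called lower and the median shift was -1.08. In ciliated-like cells of HSK against NK, Krt8 and Cldn4 were called lower at 0.380 and 0.190-fold, where 57.0% of genes were called lower and the median shift was -1.14. In ciliated-like cells of HSW against NW, Clu, Cldn4 and Areg were called lower at 0.401, 0.253 and 0.460-fold, where 36.5% were called lower and the median shift was -0.83. A gene called lower in those classes was therefore one of many.

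Between the genotypes, Areg was called higher in club-like cells of NK than of NW, at 4.56-fold (40.3 against 8.84 CPM), where 9.3% of measured genes were called higher. Most of the Areg UMIs in club-like cells of NK, 35 of them, lay in 1 cell, so this call rested on that cell. Clu was called higher in AT1-like cells of NK than of NW, at 2.22-fold (326 against 147 CPM), where 3.41% were called higher, and in fibroblast-like cells at 2.51-fold, where 3.27% were called higher. Without the cells of the finer cluster, Clu in AT1-like cells was 140 CPM in NK (12 UMIs) and 157 CPM in NW (30 UMIs), so its direction turned. In HSW against NW, Areg was called lower in AT1-like cells, at 0.329-fold (43.6 against 133 CPM), where 9.83% were called lower and 1.9% higher. Without the cells of the finer cluster its direction turned too, at 58.7 CPM in HSW (10 UMIs) and 5.22 CPM in NW (1 UMI). Clu was called lower in vascular endothelial-like cells in that pair, at 0.490-fold (172 against 350 CPM), where 6.07% were called lower.

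The other genes of the state were read against the share of all genes called in AT2-like cells. Of 33 measured genes of the wider transitional list, 0 were called higher and 0 lower in HSK against HSW, 1 higher and 5 lower in HSK against NK, 0 higher and 6 lower in HSW against NW and 1 higher and 0 lower in NK against NW. As shares of the list, those called lower were below the 21.2% of all genes in HSK against NK and above the 11.8% in HSW against NW. The gene called higher in HSK than in NK was S100a11, a calcium-binding protein gene, at 981 against 445 CPM. F3, the gene of tissue factor, was called lower there, at 4.72 against 17.9 CPM, together with Plaur, Itgb6 and Dusp6 at 0.367, 0.459 and 0.469-fold. In HSW against NW S100a6 was called lower, at 119 against 252 CPM, and Fn1, the fibronectin gene, at 0.457-fold.

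In the remaining lists the counts stand beside 21.2% of all genes called lower in HSK against NK and 11.8% in HSW against NW, and beside 0.784% to 2.2% for the other directions and pairs. Of 17 measured genes of AT2 identity 0 were called in 3 of the 4 pairs, and in HSK against NK 2 were called lower, Lpcat1 and Etv5, at 0.460 and 0.467-fold. Among 8 measured keratins, Krt80 was called lower in HSK against NK, and Krt8 and Krt79 in HSW against NW. Among 9 ligands, receptors and regulators of the EGF receptor family, Areg was the 1 called in HSK against HSW, and the feedback inhibitor Errfi1 the 1 called in HSK against NK, lower at 0.444-fold. In the claudin and tight junction list 0 of 12 measured genes were called in HSK against HSW, and 0 higher and 3 lower of 13 in HSK against NK, among them Ocln, the gene of occludin. Cldn5 was called higher and Cldn23 lower in HSW against NW, of 13 measured, and again in NK against NW, of 14. Cldn5 is also a vascular endothelial marker and had 13.5, 11.7 and 4.40 CPM in AT2-like cells of HSW, NK and NW. The part of free RNA in these levels was not tested. In the p53 list 0 of 14 were called in HSK against HSW and 0 of 15 in NK against NW, and Sesn2 was the 1 of 14 called lower in HSK against NK, at 0.411-fold. In HSW against NW 2 of 15 were called lower, Aen and Pmaip1, at 0.285 and 0.323-fold. Of the AT1 identity genes 1 of 16 was called higher in HSK against HSW, 2 of 17 higher and 2 lower in HSK against NK, 0 of 16 in HSW against NW, and 1 of 15 higher and 1 lower in NK against NW. Tgm1, a transglutaminase gene of the cornified envelope, was called higher with Sprr1a in HSW against NW, at 2.40-fold. The median log2 ratio of the 6 measured members was 0.19 in HSK against HSW, -0.43 in HSK against NK, -0.71 in HSW against NW and 0.09 in NK against NW, beside -0.02, -0.59, -0.46 and 0.07 for all measured genes.

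Over 54 sums of 14 cell classes and 4 libraries, which share libraries, depth and free RNA, Krt18 was the gene whose level was most like that of Krt8, with a Pearson correlation of log2(CPM + 1) of 0.956, followed by Prr15l with 0.943. Ndnf went most closely with the basement membrane collagen genes Col4a4 and Col4a3, at 0.899 and 0.887, and Areg with the epithelial adhesion gene Epcam, at 0.755. Sprr1a went with Sftpc at 0.738. Across single AT2-like cells the genes most like the summed members were Lgals3, Anxa5 and Ly6e, with mean correlations over the 4 libraries of 0.31, 0.30 and 0.29, which are weak.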

How the data were processed

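The members and all gene lists were chosen with earlier results of these data known. The deposited matrices hold raw UMI counts per gene and cell, which the authors did not normalize; per the submitters' processing notes builds GRCm38 and mm10 were used with Scanpy, STAR 2.6.1a, cutadapt 1.17 and featureCounts 2.0.1, and settings are not given in the sources used here. The labels describe a GEXSCOPE microwell library per group, from polyA RNA.

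Cells with under 200 genes or over 20% mitochondrial UMIs were removed (1 in HSW, 1 in NK). Cells were then removed as mixed where the markers of a second lineage, with at least 3 UMIs, reached 0.15 of that lineage's own level; Scrublet, which called 30, 8, 1 and 4 cells in HSK, HSW, NK and NW, had not worked and was used as an alternative alone. All epithelial classes counted as 1 lineage, so mixtures of them were not removed by the mixed-cell rule. The 506 cells whose 252 barcodes occur in more than 1 library were kept. Cells were clustered with scanpy 1.11.5 and leidenalg 0.10.2 (2000 variable genes, 40 components, 20 neighbours, resolution 1). Left out were 98 genes, the members and those list genes that were no cell type markers. Identity genes that were markers, such as Sftpc and Lamp3 for AT2 and Ager and Hopx for AT1, were not left out. Of 28 clusters 8 met no name, with 4.50%, 3.65%, 9.92% and 5.71% of the kept cells. Thresholds for names and the neutrophil part of the mixed-cell rule were set after the clusters were seen.

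UMIs were summed per class and library and given as CPM. With 1 library per group there is no test; a member or gene was called past 2-fold where its 95% interval left out 1 and the pair held at least 20 UMIs, and classes under 20 cells in a library got no level. A 0 allows up to 3 counts. Named genes were the members, the called genes of each list (at most 4 each way) and the genes most alike; genes named for the cells with at least 10 Sprr1a UMIs, the Krt8 steps and the finer cluster (resolution 2) were chosen after their values were seen. Tools were Python 3.11.15, scipy 1.17.1 and numpy 2.4.6, and edgeR 4.0.16 for TMM factors. The ratio step was run on simulated Poisson sums, the model that its intervals assume, so that run could not cover clumping in single cells.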

Additional observations from a re-analysis of the deposited data

Results flagged for a closer look

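In 3 cases a member's ratio pointed one way in one pair of libraries and the other way in the matching pair, with intervals for counting error that left out 1 on opposite sides. None of these differences was tested, because each group was 1 library. Areg in AT2-like cells stood at 1.20 [1.07, 1.34]-fold in HSK against NK and at 0.606 [0.525, 0.697]-fold in HSW against NW. Ndnf in AT2-like cells stood at 0.770 [0.642, 0.924]-fold in HSK against HSW and at 1.165 [1.02, 1.33]-fold in NK against NW. Krt8 in ciliated-like cells stood at 0.844 [0.767, 0.929]-fold in HSK against HSW and at 1.29 [1.171, 1.41]-fold in NK against NW.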

How the results depend on the processing

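No paired analysis was possible because each group was 1 library. The number of members called in AT2-like cells was 1 in HSK against HSW, 2 in HSK against NK, 2 in HSW against NW and 1 in NK against NW. In HSK against HSW it was 0 with no removal of mixed cells, with Scrublet alone and in the Sftpc-led cluster alone, and 2, with Sprr1a beside Areg, under TMM, median-of-ratios factors, thinning, the mean over cells, resolution 0.5 and in the Slc34a2-led cluster alone. In HSK against NK and in HSW against NW it was 1, Sprr1a, under TMM and under median-of-ratios factors, which set the median gene near 0. In NK against NW it was 0 in the Sftpc-led cluster alone. Sprr1a turned round in HSW against NW in the Slc34a2-led cluster, at -1.90 on the log2 scale, from 0 UMIs in HSW. Its ratio was 42.7 in HSW against NW and 19.7 in NK against NW where all libraries had the highest of their UMI minima, 4726. Of 384 log2 ratios of members under alternatives, 324 stayed within their main interval, 59 moved beyond it and 1 turned round. A turn was counted only for ratios called in the main setting, so changes of sign in uncalled ratios are among the others. The causes were not tested. The settings on single clusters, the finer cluster, the cell with the most UMIs and the neutrophil genes were chosen after seeing the data.

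With no minimum of UMIs, 2.75% of genes were past 2-fold in HSK against HSW, 16.6% in HSK against NK and 9.44% in HSW against NW, beside 2.42%, 23.4% and 12.7%. At least 2 members were found in 31.3%, 27.5%, 42.9% and 44.5% of thinned AT2-like cells of HSK, HSW, NK and NW, and at least 3 in 25.3%, 21.4%, 22.5% and 29.4% of cells not thinned. Cldn4 was under 20 UMIs in AT2-like cells, and the small number of AT1-like cells limits the precision there.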

Other observations

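Areg was also found in myeloid cells, at levels that rested on few of them. In conventional dendritic-like cells it had 50.4 CPM in HSK, 18.2 CPM in HSW, 6.21 CPM in NK and 11.8 CPM in NW, from 25, 17, 7 and 18 UMIs in 3, 4, 7 and 9 cells. In interstitial macrophage-like cells it had 15.9 CPM in HSK, 49.9 CPM in HSW and 9.50 CPM in NK, and it was listed at 0 in NW; the 52 UMIs of HSW lay in 7 of 143 cells. These levels are given as values, with no comparison.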
